A study of Homo sapiens with 9 samples.

Results

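The genes that make serine, pass its carbon to folate and bring amino acids into the cell were followed in MDA-MB-231 cells exposed to TEPA, a polyamine that chelates copper. The group was fixed by name, as 10 of the 59453 gene names in the count table, with no limit set on their values. The names were chosen with earlier results of these data known. They are PHGDH, PSAT1 and PSPH of serine synthesis, SHMT1, SHMT2, MTHFD2 and ALDH1L2 of folate one-carbon metabolism, and the transporters SLC7A5, SLC3A2 and SLC1A5. RNA-Seq was performed on 9 libraries in 3 groups of 3 replicates, untreated cells and cells treated with TEPA for 8 h or 24 h. MDA-MB-231 is an established human triple-negative breast cancer line grown in DMEM with serum, and all 9 libraries come from this same line. The sample labels give 8 mM TEPA and the RNA sequencing methods a lower concentration, so the dose is uncertain. A general statement on treatments in the methods names 24 h alone, while the treatment label of each sample gives its own time, 8 h or 24 h. A single untreated group served both times, and its own duration in culture is not given in the sources used here, so time in culture and time in TEPA cannot be told apart. Nothing states whether replicates were separate cultures, so the p-values measure the spread between these libraries, which may be technical. In bulk RNA, fewer cells that use a gene and less of its RNA per cell cannot be told apart.

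Serine is made from a glycolytic intermediate in successive steps: PHGDH oxidizes phosphoglycerate, PSAT1 transfers an amino group from glutamate, and PSPH removes the phosphate. The SHMT enzymes split serine into glycine and a carbon unit carried by tetrahydrofolate, SHMT1 in the cytosol and SHMT2 in mitochondria. MTHFD2 oxidizes the mitochondrial folate intermediate towards formate, which feeds purine and thymidylate synthesis, and ALDH1L2 oxidizes formyl-tetrahydrofolate to carbon dioxide with formation of NADPH. SLC7A5 is the transport subunit and SLC3A2 the heavy chain of a heterodimer that imports leucine and other large neutral amino acids, and SLC1A5 imports glutamine together with sodium. Several of these genes are known targets of the stress-induced transcription factor ATF4, and MDA-MB-231 is known as a line with very little PHGDH.

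Total counts ran from 34633755 to 49342659 per library, and 16556 genes passed the filter on low counts and were tested. The 10 genes together held 0.207 to 0.219% of all counts in untreated libraries, 0.24 to 0.243% at 8 h and 0.232 to 0.245% at 24 h. The mesenchymal-like markers VIM, CD44 and AXL were at 560 CPM or more in every library (CPM, counts scaled to a common library size). Of 5 markers listed as absent or low in triple-negative cells, PGR had no count and ESR1 at most 9 counts in any library, while ERBB2 was detected at 51.9 to 87.1 CPM, GATA3 at 10.2 to 14.8 CPM and EPCAM at 0.834 to 1.86 CPM. Of 3 markers of other cells, PTPRC had at most 5 counts in any library, while PDGFRB and PECAM1 were detected. The summed level of the 3 ran from 31.7 to 45.4 CPM in untreated libraries, 25.1 to 30 CPM at 8 h and 100 to 108 CPM at 24 h. Most of it was PDGFRB, at 28.6 to 41.2, 24.3 to 28.9 and 91 to 99.4 CPM in these groups. PECAM1 was at 2.98 to 4.08, 0.849 to 1.25 and 7.14 to 8.98 CPM. Mitochondrially encoded genes took 1.79 to 2.91% of counts in untreated libraries, 3.61 to 4.02% at 8 h and 1.89 to 2.02% at 24 h. The part of these shifts in the results below was not tested, except that library sizes computed without mitochondrial genes gave the same calls for the 8 tested genes.

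Of the 10 genes, 8 passed the filter, and PHGDH and ALDH1L2 did not. Untreated libraries had 1, 0 and 1 counts of PHGDH, 8 h libraries 1, 4 and 1, and 24 h libraries 5, 2 and 1. Its 2 counts in the untreated group correspond to 0.00197 to 0.0589 CPM (exact Poisson interval at 95%, counting error only), its 6 counts at 8 h to 0.0191 to 0.113 CPM and its 8 counts at 24 h to 0.0265 to 0.121 CPM. A count of 3 in a single library stands for 0.0588 to 0.0834 CPM. RNA of PHGDH, the gene of the first enzyme of serine synthesis, was therefore at the limit of detection in every group, and no difference was detectable at this depth. For ALDH1L2 the counts were 3, 7 and 1 untreated, 3, 6 and 5 after 8 h, and 13, 8 and 3 after 24 h. This gene lies at chr12:105019784-105107643 (hg38). Its groups overlapped, and a fit without the filter called neither gene at either time (edgeR adjusted p = 0.73 and 0.29 for ALDH1L2, and 0.49 and 0.39 for PHGDH).

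PSAT1, which acts directly after PHGDH, was expressed at 168.6 ± 11.6 CPM in untreated cells (SD, n = 3). The region before the start of each of the 2 genes is shown because the steps are consecutive and the levels lie so far apart. Each sequence holds the 250 bases before the start site of the RefSeq transcript on GRCh38.p14, 5′ to 3′ on the gene's own strand, at chr1:119711684-119711933 (plus strand) for PHGDH and chr9:78296875-78297124 (plus strand) for PSAT1. The PHGDH gene spans chr1:119648411-119744218 and PSAT1 chr9:78297125-78330093 (hg38). No base is in capitals, as neither window holds the motifs named further on.
PHGDH: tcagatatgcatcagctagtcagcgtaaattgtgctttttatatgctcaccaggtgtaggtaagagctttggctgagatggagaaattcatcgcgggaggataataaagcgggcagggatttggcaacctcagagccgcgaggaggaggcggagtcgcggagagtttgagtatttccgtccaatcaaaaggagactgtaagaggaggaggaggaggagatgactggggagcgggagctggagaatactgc
PSAT1: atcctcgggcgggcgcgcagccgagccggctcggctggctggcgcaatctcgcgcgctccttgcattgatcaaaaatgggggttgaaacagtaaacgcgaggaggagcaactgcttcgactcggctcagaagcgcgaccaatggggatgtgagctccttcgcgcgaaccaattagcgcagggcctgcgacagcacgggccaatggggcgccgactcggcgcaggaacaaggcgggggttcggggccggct
The PHGDH window has 11 CpG pairs and a GC content of 51.2%, and the PSAT1 window 30 CpG pairs and 65.6%. Over the 35116 windows of the reference table the medians are 11 pairs and 58%. DNA methylation was not measured in these samples.

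**Figure D1:**
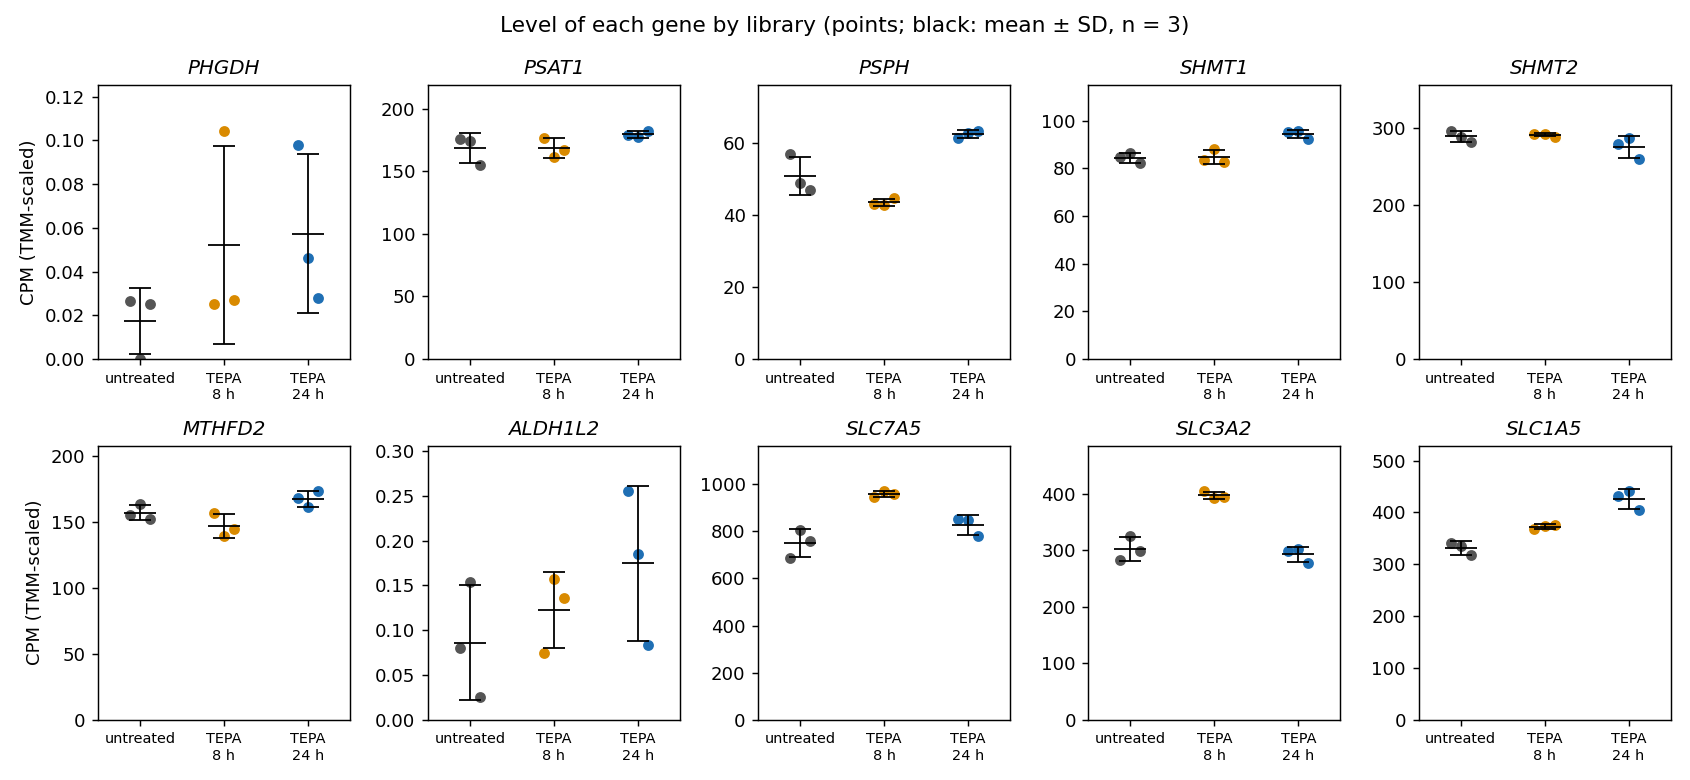
Level of each of the 10 genes in each library, in CPM on library sizes scaled by TMM factors, each panel with its own axis from 0. Points are libraries and black marks the mean ± SD of 3; the 8 h points of SLC7A5, SLC3A2 and SLC1A5 lie above all untreated points, and PHGDH and ALDH1L2 stay under 0.3 CPM.

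PSAT1 was at 176, 175 and 155 CPM in untreated libraries, 177, 161.5 and 167 CPM at 8 h, and 179, 177 and 182.5 CPM at 24 h. Untreated and 8 h libraries overlapped, whereas the 24 h libraries lay above all others by a small margin. PSAT1 was not called at either time by edgeR's quasi-likelihood test, the source of every adjusted p given here unless another is named, with log2 fold changes of -0.0013 at 8 h (standard error 0.05, adjusted p = 0.98) and 0.09 at 24 h (standard error 0.05, adjusted p = 0.13). The 95% intervals of these log2 values run from -0.10 to 0.10 and from -0.01 to 0.19. The value at 24 h depended on single untreated libraries: PSAT1 was called higher without replicate 1 (0.12, adjusted p = 0.043), and without replicate 3 its log2 fold change was 0.03 (adjusted p = 0.59).

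PSPH (chr7:56011051-56051604) moved in opposite directions at the 2 times. It was at 56.9, 49 and 46.9 CPM in untreated libraries, 43.1, 42.8 and 44.8 CPM at 8 h, and 61.5, 62.9 and 63.6 CPM at 24 h. The 3 groups did not overlap, with 8 h lowest and 24 h highest. Its log2 fold change was -0.22 at 8 h (standard error 0.06, edgeR adjusted p = 0.0053) and 0.30 at 24 h (standard error 0.06, adjusted p = 4.5e-04). Untreated replicate 1 was the highest of its group, and without it the decrease at 8 h was -0.14 (adjusted p = 0.017). Between 8 h and 24 h PSPH rose by 43.7%, a log2 difference of 0.52 (adjusted p = 1.9e-06), the only log2 difference of the 8 genes beyond 0.5 in any comparison.
Its pseudogene PSPHP1, which can share reads with PSPH, was far lower, with means of 3.14, 2.42 and 3.04 CPM in the untreated, 8 h and 24 h groups. PSPHP1 was also lower at 8 h (-0.37, edgeR adjusted p = 0.03) and was not called at 24 h (-0.05, adjusted p = 0.79), and it rose between the TEPA times (0.33, adjusted p = 0.048). The table lists 15 pseudogene names of the 10 genes, of which 12 had at most 3 counts in every library, MTHFD2P7 had at most 25 and PSAT1P3 at most 7.

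Levels were compared between genes per length, as RPKM over all annotated exons of the gene (GENCODE v44 on hg38). SLC7A5 was highest in untreated cells, at 157.8 ± 12.5 RPKM (SD, n = 3), followed by SLC1A5 at 99.5 ± 3.8, PSAT1 at 76.4 ± 5.28, SHMT2 at 62.9 ± 1.56 and SLC3A2 at 47.4 ± 3.41 RPKM. PSPH, MTHFD2 and SHMT1 followed at 18.4 ± 1.91, 13.7 ± 0.5 and 12.03 ± 0.305 RPKM. Neighbours in this order did not overlap in untreated libraries, except ALDH1L2 and PHGDH at the bottom, at 0.00908 and 0.00189 RPKM. The 8 tested genes lay between the 72.8th and the 98.8th percentile of 14458 tested genes with a length. The order depended on the length used: over the canonical transcript alone, SLC3A2 was at 160.7 RPKM and overlapped SLC7A5 at 165 RPKM, and SHMT2 was at 134 RPKM. At 8 h the ranges of SHMT2 and SLC3A2, and those of MTHFD2 and SHMT1, overlapped over all exons, and at 24 h those of the 8 tested genes did not.

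**Figure D2:**
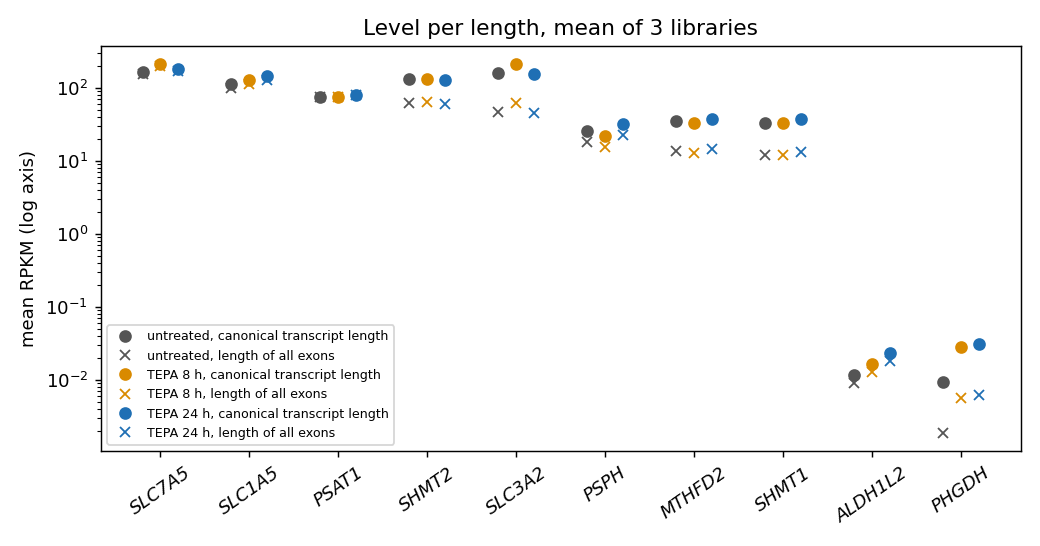
Mean level per length of the 10 genes in each group, in RPKM on a log axis, with circles for the canonical transcript length and crosses for the length of all annotated exons. PHGDH and ALDH1L2 lie below 0.1 RPKM in every group and the other 8 genes above 10 RPKM under both lengths.

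Differences between groups were then tested across all 16556 genes, with a Benjamini-Hochberg adjusted p under 0.05 as the limit for a call. At 8 h, 3 of the 8 tested genes were higher, the transporters SLC7A5, SLC3A2 and SLC1A5, and 1 was lower, PSPH. Over all genes tested, 25.2% were higher and 24.5% lower by the same rule, 49.6% in all. At 24 h, 4 of the 8 were higher, PSPH, SHMT1, SLC7A5 and SLC1A5, and none was lower, where 25.7% and 26.8% of all genes were called, 52.5% in all. DESeq2 also gave 4 and 0 at 24 h, and by edgeR 0 of the 8 were lower there at an unadjusted p under 0.05. Groups did not overlap in CPM for 4 of the 8 at 8 h, 3 higher and 1 lower, where 57.8% of all genes did not, 29.2% higher and 28.6% lower. At 24 h they did not overlap for 4, PSAT1, PSPH, SHMT1 and SLC1A5, all higher, where 57.2% of all genes did not, 28.4% higher and 28.9% lower. None of the 8 went beyond a log2 fold change of 0.5 against untreated cells, whereas 10.1% of all genes were higher and 7.67% lower beyond that limit at 8 h, and 10.2% and 8.46% at 24 h. The median size of the log2 fold change, without its sign, was 0.13 for the 8 genes at 8 h and 0.22 for all genes tested, and 0.11 against 0.24 at 24 h. The signed median of the 8 was 0.01 at 8 h and 0.11 at 24 h, beside medians of -0.0014 and 0.0023 over all genes.

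**Figure D3:**
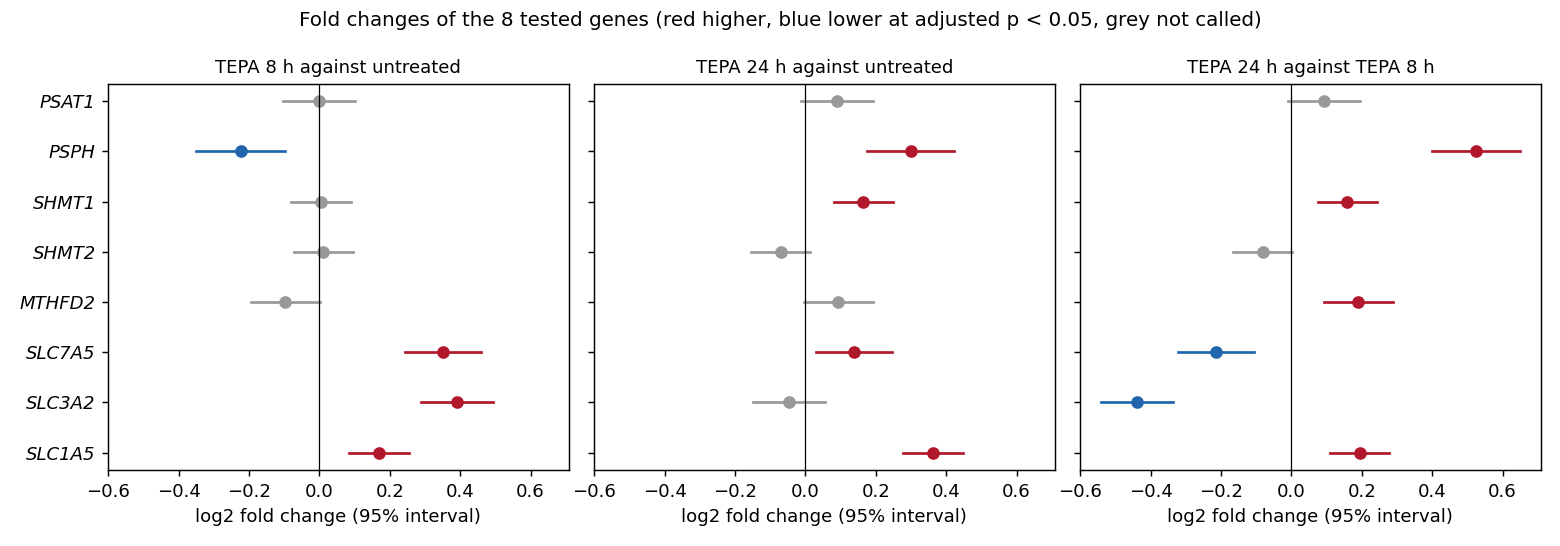
Log2 fold change of the 8 tested genes with its 95% interval in the 3 comparisons, from edgeR's quasi-likelihood fit of all 9 libraries. Red marks higher, blue lower and grey no call; at 8 h the calls above 0 are the 3 transporters, and in the comparison of 24 h with 8 h PSPH is farthest to the right at 0.52 and SLC3A2 farthest to the left at -0.44.

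All 3 transporters were higher at 8 h, and their later courses differed. SLC7A5 was at 689, 807 and 759 CPM in untreated libraries, 946, 969.5 and 960.1 CPM at 8 h, and 853, 848 and 779 CPM at 24 h. Every 8 h library was above every other library, while untreated and 24 h libraries overlapped. SLC7A5 was higher by 27.5% at 8 h (log2 fold change 0.35, standard error 0.05, edgeR adjusted p = 3.7e-05). At 24 h its log2 fold change was 0.14 (adjusted p = 0.034), which no longer passed when only the 2 groups were fitted (adjusted p = 0.067) and in 4 of 6 fits with a library removed, those without untreated replicate 1 (0.08, adjusted p = 0.13), untreated replicate 3 (0.14, adjusted p = 0.066), TEPA 24 h replicate 1 (0.11, adjusted p = 0.14) and TEPA 24 h replicate 2 (0.12, adjusted p = 0.098).

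SLC3A2, the partner of SLC7A5, was at 283, 326 and 299.7 CPM in untreated libraries, 405, 392.5 and 395 CPM at 8 h, and 299.6, 302 and 278 CPM at 24 h. It was high at 8 h alone, with no overlap between 8 h and the other groups, and untreated and 24 h libraries overlapped. Its log2 fold change was 0.39 at 8 h (standard error 0.05, edgeR adjusted p = 7.0e-06), an increase of 31.2%. SLC3A2 was not called at 24 h against untreated cells (-0.05, adjusted p = 0.43), with a 95% interval from -0.15 to 0.05. Between the TEPA times SLC3A2 fell by 0.44 in log2 CPM, with an adjusted p of 1.4e-06.

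The regions before the start sites of this pair are shown because both subunits were higher together at 8 h. They are the 250 bases before the RefSeq start on GRCh38.p14, 5′ to 3′ on the gene's strand, at chr16:87869508-87869757 (minus strand) for SLC7A5 and chr11:62880646-62880895 (plus strand) for SLC3A2, of which 3 start sites are listed and the one of the canonical transcript is given. The SLC7A5 gene spans chr16:87830023-87869507 and SLC3A2 chr11:62856004-62888880 (hg38). Capitals mark the E-box CACGTG, the letters bound by MYC-type factors.
SLC7A5: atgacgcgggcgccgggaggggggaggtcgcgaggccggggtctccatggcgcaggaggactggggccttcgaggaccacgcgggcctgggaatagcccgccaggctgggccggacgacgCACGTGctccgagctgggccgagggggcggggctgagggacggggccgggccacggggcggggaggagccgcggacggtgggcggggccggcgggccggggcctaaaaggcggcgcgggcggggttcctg
SLC3A2: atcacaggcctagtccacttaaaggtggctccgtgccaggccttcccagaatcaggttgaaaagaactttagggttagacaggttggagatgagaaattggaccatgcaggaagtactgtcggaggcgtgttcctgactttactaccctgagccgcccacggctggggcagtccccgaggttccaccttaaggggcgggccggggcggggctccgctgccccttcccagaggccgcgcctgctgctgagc
The E-box, whose letters read the same on both strands, starts 130 bases before the SLC7A5 start site, and 6.34% of all windows of this length hold it. The amino acid response element TGATGNAA, searched on both strands and found in 3.14% of all windows, is in neither sequence. Of the 10 genes, 7 have a window in the reference table, 11 windows in all. Among them an E-box lies in the window of SLC7A5 and in 1 of 3 windows of SLC1A5. The amino acid response element lies in another of the 3 windows of SLC1A5. The SLC1A5 window before the start of the canonical transcript holds neither motif. PSPH, SHMT2 and ALDH1L2 were not matched there.

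SLC1A5 (chr19:46774883-46788594) rose at both times, with 341, 336 and 317 CPM in untreated libraries, 368, 374 and 376 CPM at 8 h, and 433, 441 and 405 CPM at 24 h. None of its groups overlapped. Its log2 fold change was 0.17 at 8 h (standard error 0.04, edgeR adjusted p = 0.0025) and 0.36 at 24 h (standard error 0.04, adjusted p = 1.8e-06), which made it the largest increase of the 8 genes at 24 h, 28.5%. SLC1A5 was also higher at 24 h than at 8 h (0.19, adjusted p = 7.1e-04).

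Whether the transporter subunits moved in proportion was asked within each library, where the ratio of their counts does not depend on library scaling. Untreated libraries had SLC7A5 to SLC3A2 ratios of 2.43, 2.47 and 2.53, 8 h libraries of 2.34, 2.47 and 2.43, and 24 h libraries of 2.85, 2.81 and 2.80. Untreated and 8 h libraries overlapped, and all 24 h libraries were above both. The mean log2 ratio at 24 h was 0.18 above that of untreated libraries and 0.22 above that at 8 h, each with an exact two-sided permutation p of 0.1, the smallest that 3 against 3 libraries allow (0.15 after adjustment over the 6 ratio comparisons made). At 8 h the difference from untreated libraries was -0.04 (exact permutation p = 0.2, adjusted 0.24).

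**Figure D4:**
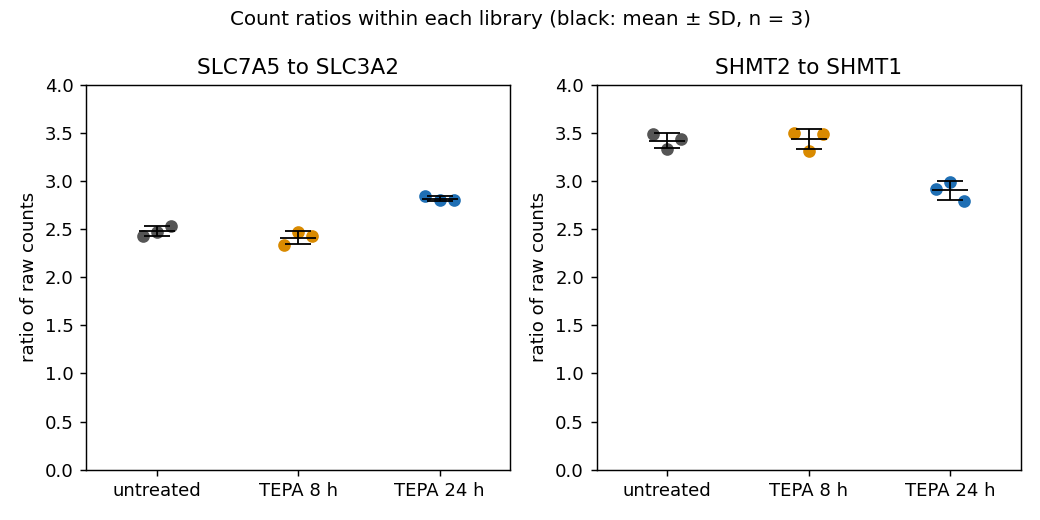
Ratio of raw counts within each library for SLC7A5 to SLC3A2 and for SHMT2 to SHMT1, with the mean ± SD of 3 libraries in black and axes from 0. The 24 h libraries stand above the others at 2.80 to 2.85 in the first panel and below them at 2.80 to 2.99 in the second.

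SHMT1 (chr17:18327860-18363563) and SHMT2 (chr12:57229573-57234935), the serine hydroxymethyltransferases of the cytosol and of mitochondria, were followed next. SHMT1 was at 84.8, 86.3 and 82.1 CPM in untreated libraries, 83.5, 88.1 and 82.5 CPM at 8 h, and 95.3, 95.9 and 92.6 CPM at 24 h. Its 24 h libraries were above all others and the remaining groups overlapped. SHMT1 was higher at 24 h by 12.1% (log2 fold change 0.16, standard error 0.04, edgeR adjusted p = 0.0024), and was not called at 8 h (0.0049, adjusted p = 0.93). SHMT2 was at 296, 288 and 282 CPM in untreated libraries, 292, 292 and 288 CPM at 8 h, and 278.5, 287 and 259 CPM at 24 h. All 3 groups lay close together, and no difference from untreated cells was called, at 0.01 (adjusted p = 0.83) for 8 h and -0.07 (adjusted p = 0.15) for 24 h, with 95% intervals from -0.07 to 0.10 and from -0.15 to 0.01. Without TEPA 24 h replicate 2, SHMT2 was called lower at 24 h (-0.10, adjusted p = 0.048), and without TEPA 24 h replicate 3 its log2 fold change was -0.03 (adjusted p = 0.54).

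Untreated libraries had SHMT2 to SHMT1 ratios of 3.49, 3.33 and 3.43, 8 h libraries of 3.50, 3.32 and 3.49, and 24 h libraries of 2.92, 2.99 and 2.80. Every 24 h library was below every other library. The mean log2 ratio at 24 h was lower by 0.24 than in untreated libraries (exact two-sided permutation p = 0.1, adjusted 0.15, the smallest p possible being 0.1), and at 8 h the difference was 0.0067 (exact permutation p = 0.8).

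MTHFD2 (chr2:74186172-74217565) was at 155, 163.5 and 153 CPM in untreated libraries, 157, 139 and 145 CPM at 8 h, and 168, 161.5 and 173 CPM at 24 h. Both TEPA groups overlapped the untreated one, but not each other. No difference from untreated cells was called, at -0.10 for 8 h (edgeR adjusted p = 0.094) and 0.09 for 24 h (adjusted p = 0.1), while the difference between 24 h and 8 h was called (0.19, adjusted p = 0.0025). The missing calls were close to the limit: at 8 h MTHFD2 was called lower without TEPA 8 h replicate 1 (-0.15, adjusted p = 0.016) and without a filter on low counts (-0.11, adjusted p = 0.043), and at 24 h it was called higher with upper-quartile normalization (0.12, adjusted p = 0.043).

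Set directly against 8 h, 24 h had 4 of the 8 genes higher, PSPH, SHMT1, MTHFD2 and SLC1A5, and 2 lower, SLC7A5 and SLC3A2, while 26% of all genes were higher and 28.8% lower, 54.8% in all. PSAT1 and SHMT2 were not called (0.09, adjusted p = 0.12, and -0.08, adjusted p = 0.095), although in CPM all 8 genes had 24 h libraries that did not overlap the 8 h libraries, 5 higher and 3 lower, as did 62% of all genes tested, 29.6% higher and 32.4% lower. For PSAT1 the difference was called when only the 2 groups were fitted (0.12, adjusted p = 0.014) and without TEPA 8 h replicate 1 (0.13, adjusted p = 0.045), and for SHMT2 without TEPA 24 h replicate 2 (-0.11, adjusted p = 0.031), whose value was -0.04 without TEPA 24 h replicate 3 (adjusted p = 0.4).

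Genes around these steps were described through 5 lists of 79 genes, of which 70 were tested. At 8 h, 20 of the 70 were higher and 10 lower, and at 24 h, 21 were higher and 21 lower by the rule for a call given above, beside 25.2% higher and 24.5% lower of all genes at 8 h and 25.7% and 26.8% at 24 h. The medians of their log2 fold changes were 0.01 and -0.0043 at these times.

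Other amino acid transporters had 9 higher and 2 lower of 19 tested at 8 h, and 8 higher and 3 lower at 24 h. The shares of all genes were 25.2% higher and 24.5% lower at 8 h, and 25.7% and 26.8% at 24 h. The medians of the log2 fold changes of these transporters were 0.19 and 0.17. SLC7A2, a carrier of cationic amino acids, rose at 8 h from 10.4 ± 1.57 to 17.3 ± 0.73 CPM (SD, n = 3), a log2 fold change of 0.73, and SLC1A3, a glutamate and aspartate transporter, fell by 1.05 on the log2 scale. Neither was called at 24 h (0.05 and -0.14). At 24 h SLC38A2, which imports small neutral amino acids such as alanine and glutamine, rose from 189.7 ± 12.4 to 316 ± 19.3 CPM (0.74, edgeR adjusted p = 1.1e-08), with 0.01 and no call at 8 h. SLC7A11, the cystine-glutamate exchanger that also pairs with SLC3A2, was at 192 ± 25.7 CPM untreated, 227 ± 15.7 CPM after 8 h and 90.6 ± 11.8 CPM after 24 h, higher at 8 h (0.24, adjusted p = 0.035) and lower at 24 h (-1.09, adjusted p = 9.4e-08).

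Among 16 tested folate and one-carbon enzymes outside the 10 genes, 1 was higher and 5 lower at 8 h, and 3 higher and 5 lower at 24 h. Beside this, 25.2% of all genes were higher and 24.5% lower at 8 h, and 25.7% and 26.8% at 24 h. MTHFD1L, the mitochondrial enzyme that releases formate, was higher at 8 h, at 114 ± 1.1 CPM against 95.5 ± 8.28 CPM (SD, n = 3), and lower at 24 h, at 81.2 ± 4.72 CPM (log2 fold change -0.23, edgeR adjusted p = 0.0023). At 24 h FPGS, which retains folates in the cell by adding glutamates, was lower (log2 fold change -0.28), and it was not called at 8 h (3.0e-04).
Purine synthesis, a main use of folate carbon, had 5 of 12 genes higher and none lower at 8 h, and 3 higher and 4 lower at 24 h. All genes tested had 25.2% higher and 24.5% lower at 8 h, and 25.7% and 26.8% at 24 h. PFAS, an enzyme of the purine ring pathway, rose at 8 h from 147 ± 11.9 to 228 ± 2.29 CPM (0.63, edgeR adjusted p = 8.8e-08) and was not called at 24 h (0.02). Of the isoenzymes of inosine monophosphate dehydrogenase, IMPDH2 was higher at both times (0.40 at 8 h and 0.29 at 24 h), and IMPDH1 was not called at 8 h (-0.06) and lower at 24 h (-0.37).

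In the methionine cycle and transsulfuration, 2 of 7 tested genes were higher and none lower at 8 h, and 2 were higher and 2 lower at 24 h. MAT2A, which makes S-adenosylmethionine, was higher at 8 h (log2 fold change 0.25) and lower at 24 h (-0.20, edgeR adjusted p = 0.0015). CTH, which makes cysteine from cystathionine, rose at 24 h from 3.70 ± 0.16 to 6.13 ± 0.586 CPM (SD, n = 3), and MTR, which remethylates homocysteine, was lower there (-0.22), while neither was called at 8 h (-0.09 and -0.05). For the synthesis of other non-essential amino acids, 3 of 16 genes were higher and 3 lower at 8 h, and 5 higher and 7 lower at 24 h. For both lists, the shares of all genes were 25.2% higher and 24.5% lower at 8 h, and 25.7% and 26.8% at 24 h. ASS1 of arginine synthesis fell first (-0.20 against untreated cells at 8 h) and was above untreated cells by 24 h (0.37), both called, and PYCR3 of proline synthesis was lower at both times (-0.24 and -0.59).

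**Figure D5:**
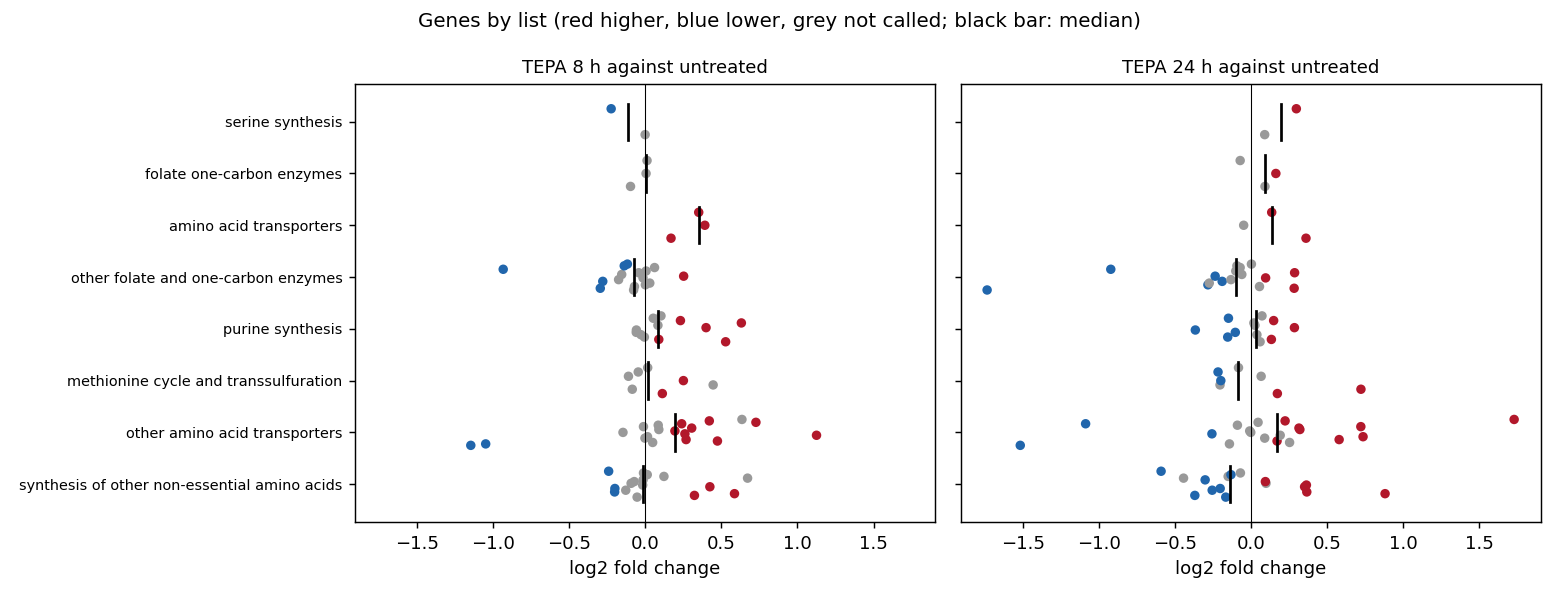
Log2 fold change of each tested gene at 8 h and at 24 h against untreated cells, by list, with the 10-gene group in the upper 3 rows. Red points are higher, blue lower and grey not called, and black bars are list medians; the 3 transporters lie at 0.17 to 0.39 at 8 h.

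Genes whose levels followed 3 of the 10 most closely were listed as a description, by Pearson correlation of log2 CPM over the 9 libraries among 11920 genes with a mean of at least 100 counts. For SLC7A5 they were NFIX (0.987), KCNAB2 (0.987) and C19orf47 (0.983), and for MTHFD2 FBXL4 (0.974), C1D (0.967) and CAAP1 (0.964). For PSAT1 the values were lower, with LARP1B (0.904), CHEK2 (0.899) and TLK2 (0.898). All points share the same libraries and their scaling, and the libraries fall into 3 groups.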

How the data were processed

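RNA-Seq counts of 9 MDA-MB-231 libraries were used. From paired reads of a stranded library kit, the authors made a quality check (FastQC), an alignment to hg38 (HISAT2) and, by featureCounts, a strand-specific count of fragments on the exons of each gene name, and deposited these raw counts without normalization. Versions of these tools are not given in the sources used here. The count is per gene name, and how reads that match several genes were treated is not stated.

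The software was edgeR 4.0.16 (R 4.3.3). A filter on low counts (filterByExpr, minimum 10) left 16556 genes, TMM factors ran from 0.978 to 1.04, and a quasi-likelihood model was fitted to the 9 libraries together, with Benjamini-Hochberg adjustment over all tested genes. The standard error was taken as log2 fold change over root F. CPM use TMM-scaled library sizes, and RPKM divide them by the length of all annotated exons. The fit was also run on simulated counts, and the outcome is not reported here. Depth was 34633755 to 49342659 counts per library, and intervals from counts cover counting error only. Ratios with PHGDH or ALDH1L2 were not compared between groups, as their counts reach 3 or fewer.

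Alternatives were DESeq2 1.42.0, upper-quartile or RLE scaling, other filters, log2 limits of 0.5 and 1, a fit of the compared groups alone, a block on replicate number, library sizes without mitochondrial genes, and removal of each library in turn. The canonical transcript length was chosen after seeing the data. Named genes are the 10 genes; per list and time, the highest and lowest called gene with a mean of at least 100 counts; and the 3 closest in pattern to PSAT1, MTHFD2 and SLC7A5. Some genes that this rule names are not reported here. The genes and lists were chosen with earlier results of these data known. Positions and lengths are from GENCODE v44, promoter windows from RefSeq (GRCh38.p14).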

Additional observations from a re-analysis of the deposited data

Results flagged for a closer look

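Levels differed between the 8 h and 24 h TEPA libraries for 6 of the 8 tested genes, by the test of 24 h against 8 h itself (edgeR's quasi-likelihood test, 3 libraries each). PSPH had a log2 difference of 0.52 (adjusted p = 1.9e-06), SHMT1 of 0.16 (adjusted p = 0.0029), MTHFD2 of 0.19 (adjusted p = 0.0025) and SLC1A5 of 0.19 (adjusted p = 7.1e-04), each higher at 24 h. SLC7A5 and SLC3A2 were lower at 24 h than at 8 h, at -0.21 (adjusted p = 0.0021) and -0.44 (adjusted p = 1.4e-06). In each case all 3 libraries of one time lay on the same side of all 3 of the other. This also held for PSAT1 and SHMT2, which were not called, and for 62% of all genes tested. Over all genes tested, 54.8% were called in this comparison.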

How the results depend on the processing

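Of 336 values of the 24 member fold changes under an alternative, 312 kept direction and side of the threshold, 5 lost a call (SLC7A5 at 24 h) and 8 gained one. A sign change occurred in 11, all of values not called in either setting: PSAT1 at 8 h was 0.013 with upper-quartile factors and 0.0015 with at least 10 counts in every library, and ran from -0.0647 to 0.0281 with 1 library left out. Without a filter, SHMT1 and SHMT2 at 8 h were -0.0075 and -0.0011, and with 1 library left out they ran from -0.0293 to 0.0173 and from -0.0125 to 0.0279. SLC3A2 at 24 h ran from -0.0959 to 0.0072 with 1 library left out. The cause was not tested.

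The number of members higher was 3 at 8 h and 0 beyond a log2 limit of 0.5 or 1. At 24 h it was 4, and 0 beyond either limit. It was 3 to 4 there with 1 library left out, 3 with only the 2 groups fitted, and 5 with upper-quartile scaling. For 24 h against 8 h it was 4, with 1 beyond 0.5 and 0 beyond 1, and 4 to 5 with 1 library left out. Members lower numbered 1 at 8 h, 0 beyond either limit and 2 without a filter, and 1 to 2 with 1 library left out. At 24 h they numbered 0, and 0 to 1 with 1 library left out (SHMT2 without TEPA 24 h replicate 2). Against 8 h they numbered 2, and 0 beyond either limit, and 2 to 3 with 1 library left out. Of all genes tested, 25.2% were higher and 24.5% lower at 8 h, and 25.7% and 26.8% at 24 h. For 24 h against 8 h the shares were 26% and 28.8%. Beyond a log2 limit of 0.5 they were 10.1% and 7.67%, 10.2% and 8.46%, and 10.4% and 10.8% in these comparisons. Of the 70 pathway genes tested, 17 were higher and 26 lower for 24 h against 8 h at any fold change. Those higher beyond 0.5 and 1 numbered 5 and 1 at 8 h, 6 and 1 at 24 h, and 7 and 1 for 24 h against 8 h. Those lower numbered 3 and 2, 5 and 3, and 8 and 3. Higher limits keep fewer genes by construction.

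With the canonical transcript length, untreated levels moved to 0.00929 RPKM for PHGDH, 25.8 for PSPH, 33.4 for SHMT1, 134 for SHMT2, 35.7 for MTHFD2, 160.7 for SLC3A2 and 115 for SLC1A5.

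Whether same-numbered replicates share more than a number is not stated. Between groups, their deviations from the group means correlated at -0.0741 to 0.0348, and those of differently numbered replicates at -0.039 to 0.0525. These correlations do not show how the replicates were made. With the replicate number as a block, 3 members were higher and 1 lower at 8 h, and 4 higher and 0 lower at 24 h, so that no call of a member changed.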
